A study of Homo sapiens with 24 samples.

Results

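Full-length SLNCR was compared with an empty vector in the second of 2 batches of A375 cells, a human melanoma line. The comparison rests on 6 of the 24 libraries of the series, taken by their labels: 3 libraries of wild type SLNCR (FL) and 3 of the vector backbone control (EV). All 6 came from cells transfected with pcDNA3.1, a plasmid that carried a CAG promoter and a puromycin resistance gene. Cells grew for 48 h with 2 µg/mL puromycin before RNA was taken, so both groups had passed through transfection and drug selection. The SLNCR transcript was supplied by the plasmid, above the copy that A375 cells express themselves. The other 6 libraries of the batch carried SLNCR without triplex-forming region (TFR) 4 or 5. They entered the fit to estimate the spread. Their levels are set beside FL for 4 genes and in the plots of components and of levels by library, with no test.

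SLNCR, also named LINC00673, is a long noncoding RNA linked with melanoma invasion. Such a TFR is RNA thought to lie in the major groove of double-stranded DNA, where runs of purines on one DNA strand give it a place to bind. The series asks which genes such regions of SLNCR regulate, and the full-length transcript against the empty vector is the reference for the deletions. Several gene groups below belong to stress signalling. The integrated stress response raises ATF4 and its targets when translation initiation is slowed, and immediate-early genes are switched on within minutes by growth factor and stress kinases.

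The EV and FL libraries held 27461668 to 33063293 estimated counts. Levels are CPM, the counts of a gene scaled to its library's size with TMM factors. Changes are log2 fold changes of FL over EV with 3 libraries per group, printed with their standard error and with an adjusted p from the quasi-likelihood test of edgeR. The design text calls the replicates biological. The 3 FL libraries did not lie together. FL 1 differed from both other FL libraries by more than 1 log2 unit in 2144 genes, FL 3 in 1197 and FL 2 in 723, against 318 to 508 in the EV libraries. On the first principal component of the 500 most variable genes FL 3 lay at -14.1, next to the EV libraries at -24.0 to -21.2, whereas FL 1 and FL 2 lay at 4.26 and 3.63. On the second component FL 1 stood alone at 46.4. In FL 1 the level of a gene relative to the mean of the 12 libraries was lower the higher its GC content (Spearman's rho -0.54 across genes, which are not independent replicates). That correlation was between 0.01 and 0.21 in the other 5 libraries. Small noncoding RNAs took 2.58% of the counts of FL 1 and 5.27 to 5.94% of the others. Levels in each FL library, and calls without FL 1 and without FL 3, are therefore given for the genes and lists the results turn on.

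**Figure D1:**
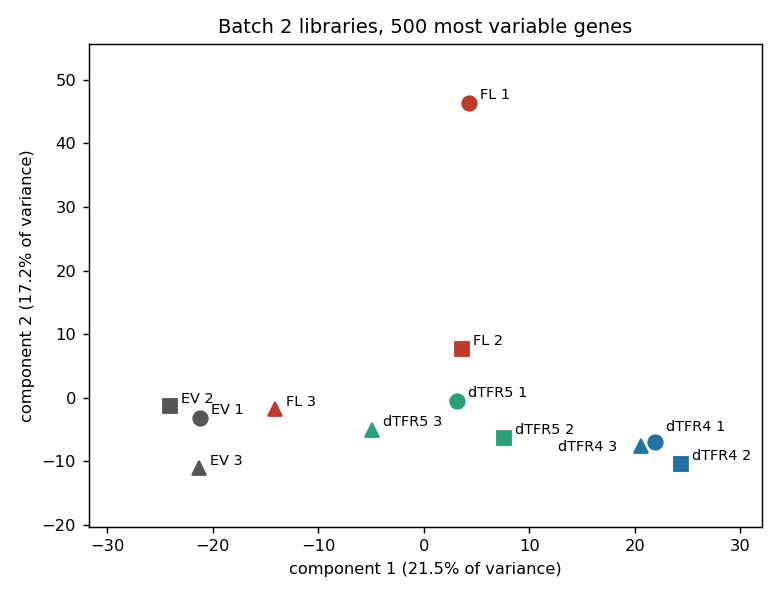
Each point is 1 of the 12 batch 2 libraries, placed on the first 2 principal components of log2 CPM over the 500 most variable genes, in arbitrary units. FL 3 lies next to the 3 EV libraries on component 1, and FL 1 stands alone on component 2 at 46.4.

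The labels call the cells epithelial. Epithelial markers were mixed, and VIM and AXL, markers of a mesenchymal melanoma line, were high. VIM was between 2200 and 3768 CPM and AXL between 1235 and 1820 CPM in the 6 libraries. Of 14 epithelial markers, 4 stayed under 1 CPM in all 6, EPCAM among them. Others were expressed, with KRT18 at 228 to 523 CPM and KRT8 at 59.1 to 169 CPM. KRT7 was 13.85 to 26.4 CPM and CLDN4 6.04 to 13.9 CPM. The pigment genes PMEL and MLANA and the glial marker S100B stayed under 1 CPM in all 6. Some markers moved with 1 or 2 libraries. KRT19 was 5.85 and 5.85 CPM in EV 1 and EV 2, 0.15 in EV 3 and 0.42 to 0.44 in the FL libraries. CDH1 was 3.98 and 5.01 CPM in EV 1 and EV 2 against 0.68 to 1.37 in the other 4. GRHL2 was 1.18 and 1.94 CPM in EV 1 and EV 2 against 0.15 to 0.37 in the other 4. At levels under 1 CPM, EPCAM was 0.53 and 0.74 against 0.03 to 0.08, and CLDN7 0.44 and 0.67 against 0.03 to 0.18. KRT8, KRT18, KRT7 and CLDN4 did not have this order. The leukocyte gene PTPRC was 2.79 CPM in FL 1 and at most 0.11 CPM in the other 5. The 9 immune and endothelial markers summed to 7.75 CPM in FL 1, 3.03 in FL 2, 4.12 in FL 3 and 3.63 to 4.61 in EV. Sums over 8 fibroblast markers were 5.68 to 7.38 CPM in EV and 7.31 to 8.93 CPM in FL. The part of these cells in the results was not tested. In bulk RNA, fewer cells of a type and less RNA per cell cannot be told apart.

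The transgene was read first as a check of the labels. SLNCR reads were counted at the gene named LINC00511, which spans chr17:72290091-72640472 on the minus strand in GENCODE v29 and covers the RefSeq gene LINC00673. Its level was 30.1, 29.1 and 27.9 CPM in EV 1 to EV 3, and 728, 658 and 334 CPM in FL 1 to FL 3. Every FL library was above every EV library, and FL 3 held the lowest of the 3 FL levels. The fitted difference was 4.30 ± 0.30 (adjusted p = 4.03e-05), a 19.8-fold rise. It was 4.10 without FL 1 and 4.57 without FL 3.

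Of 18763 genes tested, 217 were called at an adjusted p under 0.05, which is 1.16%. The calls leaned to higher expression with SLNCR, with 193 genes higher (1.03% of genes tested) and 24 lower (0.128%). The median change over all genes tested was 0.02. An unadjusted p under 0.05 was reached by 4933 genes, and 178 of the 217 calls had an adjusted p of 0.04 or more, so most calls sat close to the threshold. DESeq2 called 2057 genes in the same 12 libraries, 1426 higher and 631 lower, and 210 of the 217 were among them in the same direction. That is a background of 11% of genes, 7.6% higher and 3.36% lower. Without FL 3, edgeR called 5966 genes (30.7%), 3290 higher (17%) and 2676 lower (13.8%), including all 217. Without FL 1 it called 50 genes (0.26%), 38 higher (0.198%) and 12 lower (0.0624%), of which 43 were among the 217. Leaving out EV 1, EV 2, EV 3 or FL 2 left 6 (0.031%), 12 (0.0621%), 20 (0.102%) and 12 (0.0617%) calls, of which 6, 11, 12 and 12 were among the 217. Most of the calls below were thus lost when any 1 of these 4 libraries was left out, and not only without FL 1. Fitted on the EV and FL libraries alone, edgeR called 2 genes (0.0113%), SLNCR and MYOCD. The share called was 0.805% with RLE scaling, 2.28% with no filter on low counts, 23.9% with limma voom sample weights, 2.13% with a replicate block and 3.89% with GC and length trends removed.

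**Figure D2:**
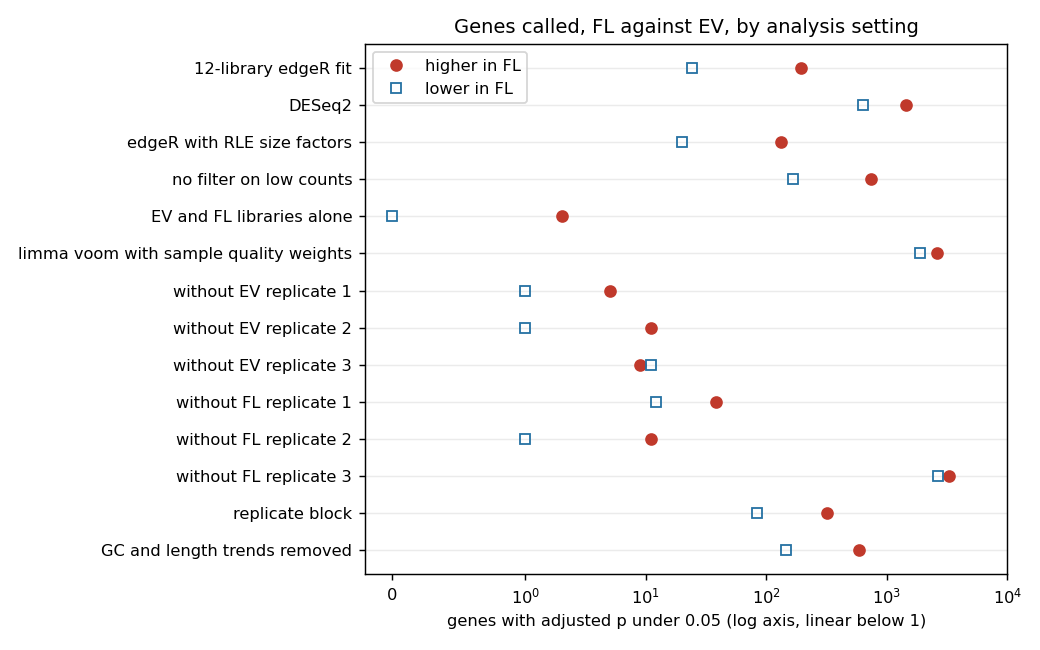
Genes called higher (filled circles) and lower (open squares) in FL than in EV under each analysis setting, on a log axis that is linear below 1. The 12-library edgeR fit gave 193 higher and 24 lower, and the fit without FL replicate 3 gave 3290 and 2676.

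FL 3 moved in the direction of the other FL libraries by less. Over the 193 genes called higher, the median distance from the EV mean was 1.71 log2 units in FL 1, 1.58 in FL 2 and 0.51 in FL 3. Per gene the distance in FL 3 had a median of 30.8% of the mean of FL 1 and FL 2. Over the 24 genes called lower, the medians were -1.20, -1.16 and -0.76, and the distance in FL 3 had a median of 67.1% of that mean. The level of SLNCR was also lowest in FL 3, and the part of that level in the smaller distances was not tested. These genes were called with all 3 libraries in the test, so the sign in each library is a description.

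**Figure D3:**
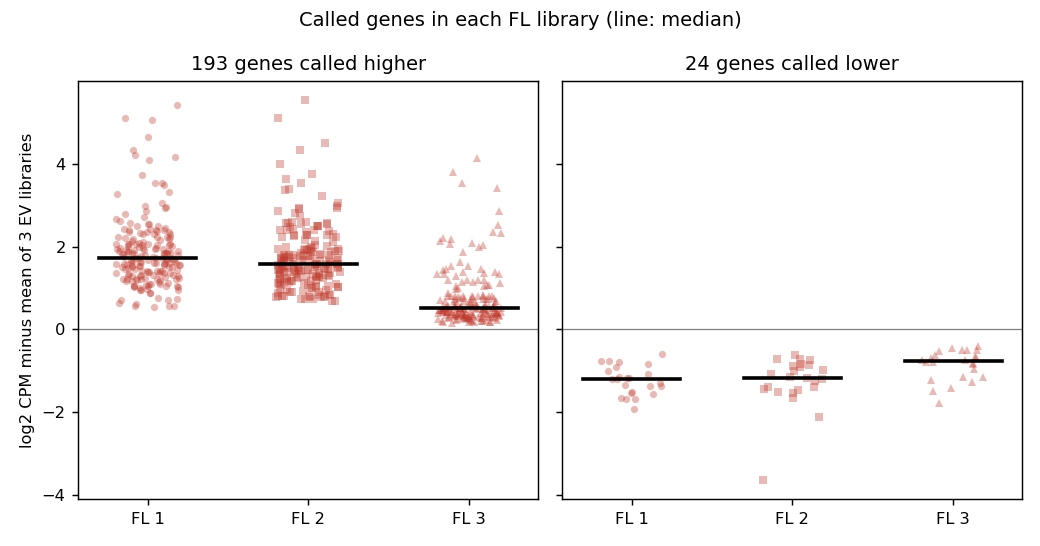
Each point is 1 called gene in 1 FL library, as log2 CPM minus the mean of the 3 EV libraries, for 193 genes called higher (left) and 24 called lower (right), with the median as a line. The FL 3 medians, 0.51 and -0.76, lie nearer to 0 than those of FL 1 and FL 2.

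Besides SLNCR, 4 genes were called in the 12-library fit and in each of the 6 fits that left out 1 library: MYOCD, USHBP1 and SOX11 rose and CTNND2 fell. USHBP1 and SOX11 lie outside the rule for naming genes and were chosen after their values were seen. MYOCD, on chr17:12665890-12768949, encodes myocardin, a coactivator of serum response factor that drives smooth and cardiac muscle genes. Its level was 0.06, 0.04 and 0.04 CPM in EV, from 2, 1 and 1 reads, and 4.87, 3.91 and 1.97 CPM in FL, from 162, 106 and 63 reads. The gene was thus near 0 in every EV library and present in every FL library. The fitted change of 6.16 ± 0.63 (adjusted p = 0.00193) rests on 4 EV reads in all and depends on the prior count. In the 6 libraries with a TFR deleted, MYOCD had 0 to 2 reads per library. MYOCD passed the filter on low counts through the FL libraries, so a call could only be a rise.

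Genes that myocardin and serum response factor are known to drive did not pass the test. The list of serum response factor and cytoskeletal genes held 18 tested members, of which MYOCD itself was the 1 called, and its median change was 0.03. TAGLN, a smooth muscle marker, was 1.21, 2.19 and 1.66 CPM in EV and 1.59, 0.96 and 1.84 CPM in FL. ACTA2, smooth muscle actin, was 9.12, 7.79 and 10.3 CPM in EV and 12, 12.1 and 9.93 CPM in FL, with overlapping groups. SRF itself was 62.7, 60.9 and 68.6 CPM in EV and 58.0, 69.5 and 65.2 CPM in FL.

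USHBP1, on chr19:17249176-17282786, encodes a protein that binds the Usher syndrome protein harmonin. It had 3, 2 and 6 reads in EV (0.09, 0.07 and 0.23 CPM) and 214, 237 and 83 reads in FL (6.43, 8.75 and 2.59 CPM). The fitted change was 5.49 ± 0.63 (adjusted p = 0.00363), again against very few EV reads. With TFR4 deleted it was 0.15 to 0.45 CPM and with TFR5 deleted 0.07 to 0.36 CPM. USHBP1 also passed the filter through the FL libraries. FL 3 was the lowest FL library for USHBP1, MYOCD and SLNCR.

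SOX11, a neural crest and neuronal transcription factor, was 10.5, 10.2 and 9.16 CPM in EV and 23.2, 34.0 and 25.2 CPM in FL, with no overlap. The rise was 1.46 ± 0.16 (adjusted p = 0.00363), and here FL 3 was no lower than FL 1. With TFR4 deleted SOX11 was 18.3 to 21.8 CPM, with TFR5 deleted 37.2 to 48.0 CPM. CTNND2 encodes delta-catenin, an adhesion junction protein of neural cells. It was 16.3, 19.1 and 16.6 CPM in EV and 6.01, 7.57 and 7.47 CPM in FL, and fell by 1.31 ± 0.15 on the log2 scale (adjusted p = 0.00369). The 3 FL libraries were close to each other for this gene. With TFR4 deleted CTNND2 was 15.1 to 16.5 CPM, and with TFR5 deleted 6.02 to 7.77 CPM.

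**Figure D4:**
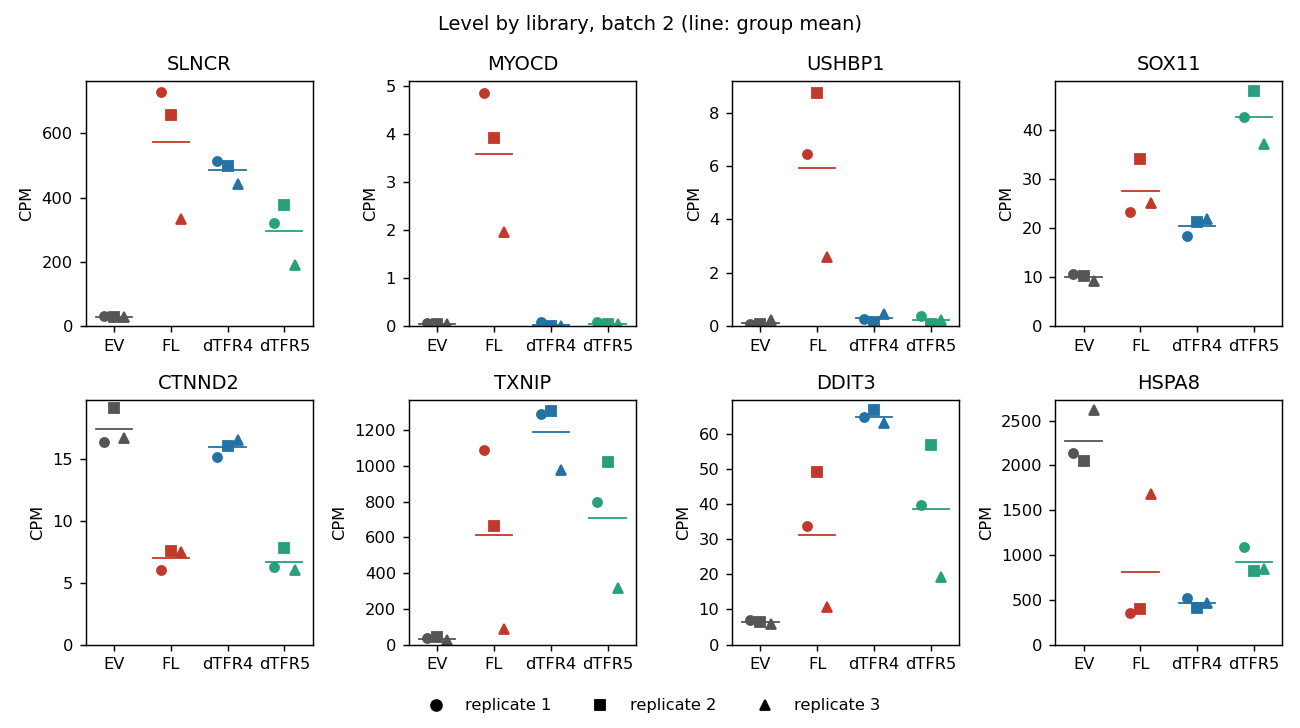
CPM of 8 genes in each batch 2 library, from 0 on a linear axis, with replicate number as symbol and group mean as line. MYOCD and USHBP1 are near 0 outside FL, CTNND2 has FL libraries close together, and TXNIP, DDIT3 and HSPA8 have FL 3 next to EV.

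A further 5 genes had an adjusted p under 0.01. BGN, which encodes the matrix proteoglycan biglycan, was 1.99, 2.57 and 1.55 CPM in EV and 6.79, 9.89 and 5.87 CPM in FL (1.87 ± 0.23, adjusted p = 0.00475). CASC15, a long noncoding RNA studied in neuroblastoma and melanoma, was 3.24, 4.41 and 3.67 CPM in EV and 14.9, 13.1 and 8.59 CPM in FL (1.69 ± 0.21, adjusted p = 0.00475). The receptor tyrosine kinase ROS1 was 12.1, 12.3 and 10.4 CPM in EV and 32.9, 26.2 and 25.8 CPM in FL, a rise of 1.29. The endothelial receptor TIE1 was 2.96, 3.14 and 2.69 CPM in EV and 6.34, 10.7 and 7.75 CPM in FL, a rise of 1.49. Of the other endothelial markers in FL, CDH5 was at most 0.184 CPM, KDR 0.12 to 0.34, VWF 0.57 to 0.89 and PECAM1 1.23, 0.70 and 1.53 CPM, the last against 0.78 to 1.06 CPM in EV. Their part in the TIE1 result was not tested. HDGFL1 was 0.25, 0.46 and 0.34 CPM in EV and 5.41, 5.46 and 2.00 CPM in FL. Its EV levels were near the floor, and whether it passed the filter on low counts only through FL was not examined. The groups did not overlap for any of the 5, and all 5 were called without FL 1 and without FL 3. None of the 5 was called in all 6 fits that left out 1 library, and BGN had an adjusted p of 0.0516 without EV 1. ROS1, TIE1 and HDGFL1, which lie outside the rule, and CASC15 were named for these p-values, after they were seen.

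The series concerns RNA that binds purine runs in DNA, so the RefSeq promoter windows of the called genes (GRCh38.p14, 250 bases before to 50 after each start) were searched for unbroken runs of at least 15 purines on either strand. A window was found for 141 of the 193 genes called higher, 15 of the 24 called lower and 11817 of all genes tested. A gene counted if any of its windows held a run. Runs were present for 29.8% of the genes called higher (42 of 141), 46.7% of those called lower (7 of 15) and 25.3% of all genes tested. These shares are a description of the letters in these windows. Below are 100 bases upstream of the start for 3 of the genes above, 5′ to 3′ on the strand of the gene, with the longest run in capitals. In CTNND2 and BGN the purines lie on the opposite strand.
CTNND2, chr5:11904492-11904591, minus strand: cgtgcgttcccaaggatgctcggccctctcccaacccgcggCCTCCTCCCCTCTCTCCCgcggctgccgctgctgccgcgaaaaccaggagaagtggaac
BGN, chrX:153494842-153494941, plus strand: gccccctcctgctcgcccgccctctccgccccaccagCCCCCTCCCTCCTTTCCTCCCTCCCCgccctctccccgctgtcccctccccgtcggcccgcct
CASC15, chr6:21666313-21666412, plus strand: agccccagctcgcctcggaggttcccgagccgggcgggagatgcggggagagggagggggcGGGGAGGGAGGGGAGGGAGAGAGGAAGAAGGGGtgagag
The runs were 18 bases long in CTNND2, 26 in BGN and 33 in CASC15. USHBP1 had a window with no run of that length. MYOCD and SOX11 were not matched.

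Among called genes whose mean log2 CPM reached 1, the rises next in size to SLNCR were in TXNIP and ARRDC4, arrestin-domain genes that respond to glucose. TXNIP, which binds thioredoxin and restrains glucose uptake, was 36.4, 39.5 and 24.7 CPM in EV and 1087, 663 and 84.6 CPM in FL. All FL libraries were above all EV libraries, FL 3 by far the least. The rule for naming the largest rises required that the groups not overlap. The rise was 4.19 ± 0.80 (adjusted p = 0.0458), and it was 3.48 with an adjusted p of 0.144 without FL 1. ARRDC4, a paralog, was 2.96, 2.54 and 2.16 CPM in EV and 29.9, 19.6 and 3.65 CPM in FL (2.79 ± 0.57, adjusted p = 0.0433). ARRDC3, which carries beta-adrenergic receptors and integrins to degradation, was 39.4, 39.8 and 34.3 CPM in EV and 293, 202 and 53.3 CPM in FL (2.27 ± 0.43, adjusted p = 0.0425). Of 7 tested genes of the group 3 rose and 0 fell, 0 were called without FL 1 and 3 without FL 3. Over all genes tested the shares called higher were 1.03% with all libraries, 0.198% without FL 1 and 17% without FL 3. MLXIP, which encodes the glucose sensor MondoA, was 83.1 to 89.9 CPM in EV and 72.8 to 92.2 CPM in FL, and its partner MLX was 68.9 to 87.0 and 55.6 to 75.9 CPM.

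The promoter of TXNIP holds a pair of E boxes known as a carbohydrate response element, to which MondoA binds. The letters CACGNG, then 5 bases of any kind and CACGNG again, were sought on both strands. They occurred in the windows of 1 of the 141 genes called higher, TXNIP, and in 0.135% of all genes tested. The element of TXNIP was known before the search, so its match is a description and not a result about the genes called higher. A window without these letters does not show that a gene lacks such an element. The match is in capitals.
TXNIP, chr1:145996610-145996709, minus strand: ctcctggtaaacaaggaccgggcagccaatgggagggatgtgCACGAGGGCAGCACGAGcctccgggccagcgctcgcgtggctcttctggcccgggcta

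Genes of the integrated stress response formed the list with the most calls. Of 24 tested members 7 rose and 0 fell, and the median change was 0.59 against 0.02 over all genes tested. The shares called over all genes tested were 1.03% higher and 0.128% lower, the background for this list and those below. The list medians were 0.52 in FL 1, 0.95 in FL 2 and 0.21 in FL 3. STC2, a secreted glycoprotein, was 22.7, 21.3 and 22.6 CPM in EV and 105, 117 and 35.9 CPM in FL (1.95 ± 0.36, adjusted p = 0.0414). TRIB3, a pseudokinase induced by ATF4, was 185, 129 and 125 CPM in EV and 532, 673 and 209 CPM in FL (1.68 ± 0.33, adjusted p = 0.0425). PPP1R15A, the phosphatase subunit that reverses the response, was 132, 120 and 108 CPM in EV and 823, 899 and 210 CPM in FL (2.42 ± 0.45, adjusted p = 0.0425). The cytokine gene GDF15 was 11.9, 11 and 8.78 CPM in EV and 42.4, 75.8 and 18.4 CPM in FL (2.11 ± 0.41, adjusted p = 0.0425). DDIT3, which encodes the transcription factor CHOP, was 6.97, 6.35 and 5.94 CPM in EV and 33.9, 49.0 and 10.7 CPM in FL (2.28 ± 0.46, adjusted p = 0.0431). In each of these FL 3 was the FL library nearest to EV. The groups did not overlap, which the rule for naming the largest rises required of PPP1R15A, GDF15 and DDIT3. The other called members were SESN2 and ALDH1L2, a mitochondrial folate enzyme at 64.4, 63.0 and 52.3 CPM in EV and 249, 172 and 72.8 CPM in FL, and SESN2 also stands in the list of p53 targets.

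The calls of this list were lost in every fit without 1 library, other than FL 3, for the 5 genes given above. PPP1R15A had an adjusted p of 0.153, 0.179 and 0.185 without EV 1, EV 2 and EV 3, and 0.158 without FL 2. Without FL 1 none of the 24 members was called and the median was 0.63. Without FL 3, 16 were called higher and 1 lower with a median of 0.71, beside 17% and 13.8% of all genes tested. DESeq2 called 15 of the 24 higher and 0 lower, beside 7.6% and 3.36% of all genes tested. In the fit with GC content and length trends removed the list median was 0.68. ASNS, asparagine synthetase and a textbook ATF4 target, was 174, 147 and 127 CPM in EV and 352, 358 and 164 CPM in FL and did not pass (adjusted p = 0.0597), with FL 3 inside the EV range. The unfolded protein response of the endoplasmic reticulum, which shares an arm with this pathway, had 0 of 18 members called and a median of 0.00. Its chaperone gene HSP90B1 was 643 to 666 CPM in EV and 631 to 687 CPM in FL, and CALR was 847 to 985 CPM in EV and 452, 635 and 812 CPM in FL (adjusted p = 0.104). ERN1, which encodes the sensor IRE1 and is named as 1 of the largest rises, was 11.8, 8.78 and 10.7 CPM in EV and 58.5, 54.7 and 13.9 CPM in FL (2.02 ± 0.41, adjusted p = 0.0431). The called genes ERN1, PPP1R15A and DDIT3 were not among the 18 listed for the unfolded protein response. The 0 calls hold for that list only.

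The binding motif of ATF4 and C/EBP dimers, TGATGNAA on either strand, occurred in the windows of 5.67% of the genes called higher (8 of 141), 6.67% of those called lower (1 of 15) and 2.94% of all genes tested. ATF3, itself a stress-induced transcription factor, was picked by hand for this motif. The first match found upstream of its start is given in capitals. Further matches in ATF3 were not counted, and the match is a description and not a result about the genes called higher.
ATF3, chr1:212565170-212565269, plus strand: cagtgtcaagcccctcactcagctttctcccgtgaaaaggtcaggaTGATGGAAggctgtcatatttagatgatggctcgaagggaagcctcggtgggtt
ATF3 was 24.0, 27.9 and 22.4 CPM in EV and 93.5, 130 and 36.6 CPM in FL, a rise of 1.81 ± 0.38 (adjusted p = 0.0433).

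Immediate-early genes had 4 of 27 members called, all higher, with a median change of 0.82 and medians of 0.72, 1.26 and 0.17 in FL 1 to FL 3. They were ATF3, MYC, KLF10 and KLF6, beside 1.03% of all genes tested called higher. The transcription factor MYC was 77.3, 73.8 and 64.1 CPM in EV and 333, 348 and 80.6 CPM in FL (1.82 ± 0.39, adjusted p = 0.0496). KLF10 was 48.2, 45.8 and 46.4 CPM in EV and 143, 120 and 53.2 CPM in FL, and KLF6 was 94.8, 106 and 94.4 CPM in EV and 296, 237 and 112 CPM in FL. Both are zinc finger factors, and both had FL 3 just above EV. EGR1 was 23.6, 25.8 and 18.3 CPM in EV and 387, 560 and 43.4 CPM in FL and did not pass with 3 libraries (adjusted p = 0.08). JUN was 33.12, 32.3 and 36.1 CPM in EV and 185, 340 and 44.6 CPM in FL (adjusted p = 0.0626). FOS was 20.9, 32.9 and 24.6 CPM in EV and 24.4, 33.8 and 29 CPM in FL, with the groups overlapping. Without FL 1 none of the 27 was called, and without FL 3, 18 were called higher and 0 lower. The share called higher over all genes tested without FL 3 was 17%.

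Genes that report ERK signalling, which mutant BRAF drives in A375, had 4 of 24 members called, all higher, and a median of 0.45. The dual-specificity phosphatases, which switch MAP kinases off, made up 3 of the 4. DUSP1 was 26.7, 21.3 and 21.7 CPM in EV and 70.2, 94.0 and 36.3 CPM in FL (1.52 ± 0.28, adjusted p = 0.042). DUSP8 was 1.96, 2.40 and 1.89 CPM in EV and 11.1, 12.8 and 3.09 CPM in FL (2.11 ± 0.41, adjusted p = 0.0425). DUSP5 was 120, 113 and 98.9 CPM in EV and 302, 379 and 130 CPM in FL (1.29 ± 0.28, adjusted p = 0.0496). The 4th was MYC. None of the 24 was called without FL 1, and 15 were called higher and 1 lower without FL 3. Over all genes tested 1.03% were called higher with all libraries, and 17% without FL 3.

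Receptors and ligands of the EGF family moved in both directions, with 2 of 11 members called higher and 1 lower. The shares over all genes tested were 1.03% and 0.128%. HBEGF, a ligand, was 95.1, 85.6 and 78.2 CPM in EV and 334, 324 and 95.6 CPM in FL (1.54 ± 0.34, adjusted p = 0.0496). EGFR, its receptor, was 203, 192 and 175 CPM in EV and 484, 388 and 227 CPM in FL (0.95 ± 0.21, adjusted p = 0.0496). In both, FL 3 was just above the highest EV library. ERBB3, a receptor that melanocytes use, was 15.3, 13.7 and 15.2 CPM in EV and 8.71, 8.82 and 10.4 CPM in FL, and fell by 0.66 ± 0.13 on the log2 scale (adjusted p = 0.0431). None of the 3 was called without FL 1. The ligand gene EREG was 7.31 and 9.84 CPM in EV 1 and EV 2 and 0.49 CPM in EV 3, the order of libraries that KRT19 also showed, and 0.53 to 2.40 CPM in FL.

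SOX10 and SOX9, which mark opposed melanoma states, went in opposite directions. SOX10, the lineage factor of melanocytes, was 68.9, 75.1 and 77.9 CPM in EV and 43.9, 48.3 and 44.0 CPM in FL. It fell by 0.70 ± 0.11 on the log2 scale (adjusted p = 0.0227), with FL libraries close together, and was called without FL 1 (adjusted p = 0.0155) and without FL 3 (adjusted p = 0.00108). SOX10 was not called without EV 1, EV 2, EV 3 or FL 2 (adjusted p = 0.0867, 0.137, 0.101 and 0.0638). With GC and length trends removed its change was -0.46, and it was not called (edgeR adjusted p = 0.0744). SOX9, a factor of undifferentiated cells that lies on chromosome 17 beside SLNCR, was 254, 263 and 249 CPM in EV and 419, 439 and 321 CPM in FL (0.62 ± 0.12, adjusted p = 0.0425). SOX9 was also called without FL 1 (adjusted p = 0.0494) and without FL 3, and not without EV 1, EV 2, EV 3 or FL 2 (adjusted p = 0.162, 0.179, 0.196 and 0.164). Of 20 genes of dedifferentiated melanoma, 3 rose and 0 fell, SOX9 and EGFR among them. Their median was 0.28, and 1.03% of all genes tested were called higher. NGFR, a defining gene of that state, was 76.5, 73.7 and 96.3 CPM in EV and 17, 41.3 and 57.3 CPM in FL (adjusted p = 0.0849). Of 12 genes of melanocyte differentiation SOX10 was the 1 called. MITF, their master regulator, was 75.2, 80.6 and 75.9 CPM in EV and 198, 127 and 80.3 CPM in FL (adjusted p = 0.0752). Of 10 tested genes near SLNCR on chromosome 17, SOX9 was the 1 called.

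Matrix proteases and inhibitors had 1 of 25 members called higher and 2 lower, beside 1.03% and 0.128% of all genes tested. MMP9, the protease earlier work ties to SLNCR, had 11 counts in all over the 6 libraries and was not tested. TIMP3, an inhibitor of metalloproteases bound to matrix, was 117, 112 and 122 CPM in EV and 51.7, 43.1 and 82.7 CPM in FL, and fell by 0.98 ± 0.20 on the log2 scale (adjusted p = 0.0433). SERPINA3, an inhibitor of chymotrypsin-like proteases, was 27.0, 30.2 and 16.1 CPM in EV and 9.16, 11.7 and 14.1 CPM in FL (-1.07 ± 0.22, adjusted p = 0.0431), with EV 3 near FL 3. No member of the list was called without FL 1. Among 29 extracellular matrix genes BGN and FN1 rose, with a list median of 0.04. FN1, fibronectin, was 43.5, 48.6 and 41.3 CPM in EV and 81.4, 70.9 and 101 CPM in FL (0.93 ± 0.14, adjusted p = 0.0149), and here FL 3 was the highest.

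Where the mean log2 CPM reached 1, the 15 largest called falls were of 0.98 to 1.57 log2 units. RTN1, a reticulon of the neuronal endoplasmic reticulum, was 15.4, 14.1 and 15.9 CPM in EV and 5.86, 6.64 and 7.75 CPM in FL (-1.16 ± 0.17, adjusted p = 0.0149). GABRB2, a subunit of the GABA receptor, was 5.20, 5.18 and 4.24 CPM in EV and 1.59, 1.62 and 1.69 CPM in FL (-1.57 ± 0.29, adjusted p = 0.042). NEFL, a neurofilament subunit, was 37.1, 37.8 and 41.1 CPM in EV and 15.2, 16.2 and 27.0 CPM in FL (-0.99 ± 0.20, adjusted p = 0.0433). DAPK1, a death-associated kinase, was 9.90, 9.73 and 7.76 CPM in EV and 3.96, 4.58 and 5.12 CPM in FL (a fall by 1 log2 unit, adjusted p = 0.0322). RTN1 and DAPK1 were called without FL 1, and GABRB2 and NEFL were not (adjusted p = 0.065 and 0.0929). CCDC88C, an inhibitor of Wnt signalling that binds Dishevelled, was 4.08, 3.81 and 3.82 CPM in EV and 1.56, 1.33 and 1.59 CPM in FL (-1.38 ± 0.23, adjusted p = 0.0322). ADAMTS9, a secreted protease, was 17.6, 17.1 and 18.3 CPM in EV and 7.96, 8.30 and 10.2 CPM in FL (a fall by 1 log2 unit, adjusted p = 0.0322). Both had FL libraries close together. The metallothionein MT1X was 9.0, 10.2 and 12.9 CPM in EV and 3.60, 5.68 and 6.59 CPM in FL (-1.02 ± 0.22, adjusted p = 0.0496).

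In antigen presentation 2 of 20 genes fell and 0 rose, beside 0.128% of all genes tested called lower. CIITA, the transactivator of class II genes, was 10.5, 12.9 and 11.4 CPM in EV and 4.99, 4.13 and 7.56 CPM in FL (-1.06 ± 0.22, adjusted p = 0.0458). HLA-DRA, a class II chain, was 10.6, 7.90 and 10.5 CPM in EV and 5.56, 4.32 and 4.31 CPM in FL (-1.03 ± 0.20, adjusted p = 0.0431). CD74, the invariant chain, was 184, 178 and 197 CPM in EV and 118, 149 and 132 CPM in FL, with no overlap, and did not pass the test (adjusted p = 0.0577). HLA-DRA was called without FL 1 (adjusted p = 0.0325) and CIITA was not (adjusted p = 0.102).

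Growth and inflammatory programs added single calls, beside 1.03% of all genes tested called higher. The transcription factor CREB5, next in size to ARRDC4 among the rises, was 11.2, 11 and 8.21 CPM in EV and 96.5, 59.5 and 24.6 CPM in FL (2.57 ± 0.36, adjusted p = 0.0139), and it was called without FL 1 (adjusted p = 0.0402). Of 25 p53 targets, PMAIP1, SESN2 and GADD45A rose, with a list median of 0.25. CDKN1A, the p53 target best known for cell cycle arrest, was 209, 207 and 225 CPM in EV and 254, 328 and 220 CPM in FL (adjusted p = 0.312). PMAIP1, a proapoptotic BH3 gene, was 89.7, 85.6 and 76.2 CPM in EV and 176, 183 and 106 CPM in FL (0.89 ± 0.17, adjusted p = 0.0425), and GADD45A was 27.3, 31.2 and 28.6 CPM in EV and 128, 192 and 40.3 CPM in FL (2.05 ± 0.44, adjusted p = 0.0496). Of 20 YAP and TEAD targets NUAK2 and DLC1 rose, with a list median of 0.54. The kinase gene NUAK2 was 38.9, 36.1 and 34.5 CPM in EV and 103, 129 and 45.7 CPM in FL. DLC1 was 237, 232 and 204 CPM in EV and 554, 522 and 262 CPM in FL. Of 21 inflammatory NF-kB targets the cytokine gene LIF rose, at 86.1, 82.9 and 76.6 CPM in EV and 206, 260 and 92.7 CPM in FL (1.19 ± 0.26, adjusted p = 0.0496), with list medians of 1.07, 0.89 and -0.08 in FL 1 to FL 3. IL24 was 148, 121 and 124 CPM in EV and 827, 773 and 124 CPM in FL, so that FL 3 lay inside the EV range (adjusted p = 0.0683). No member of the p53, YAP or NF-kB lists was called without FL 1.

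Other programs were low in FL 1 and FL 2 and close to EV in FL 3, and none of their members was called with all 3 libraries. Heat shock genes had a median change of -0.96 over 13 members, and medians of -1.88, -1.19 and -0.25 in FL 1 to FL 3. HSPA8, the constitutive HSP70, was 2137, 2043 and 2621 CPM in EV and 350, 397 and 1674 CPM in FL (-1.49 ± 0.47, adjusted p = 0.0919). HSP90AA1, the inducible HSP90, was 1662, 1611 and 1716 CPM in EV and 570, 702 and 1214 CPM in FL (adjusted p = 0.0651). The groups did not overlap for either. DESeq2 called 9 of the 13 lower and edgeR without FL 3 called 11, while edgeR without FL 1 called 0. Over all genes tested, the shares called lower were 3.36% with DESeq2, 13.8% without FL 3 and 0.0624% without FL 1.

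DNA replication genes had a median change of -0.68 over 30 members, and medians of -1.45, -0.82 and -0.10 in FL 1 to FL 3. PCNA, the sliding clamp of the replication fork, was 189, 179 and 201 CPM in EV and 58.8, 60.8 and 171 CPM in FL (-0.97 ± 0.32, adjusted p = 0.0978). MCM4, a helicase subunit, was 559, 586 and 594 CPM in EV and 165, 229 and 534 CPM in FL (-0.91 ± 0.32, adjusted p = 0.114). Without FL 3, 25 of the 30 were called lower, and without FL 1, 0 were, beside 13.8% and 0.0624% of all genes tested. FAM111B, an S-phase protease gene among the 10 with the widest spread in FL, was 26.7, 27.6 and 32.8 CPM in EV and 1.38, 1.77 and 24.2 CPM in FL. Mitosis genes had a median of -0.40 over 30 members, with 15 called lower without FL 3, beside the same 13.8%. MKI67, the proliferation marker, was 576, 574 and 548 CPM in EV and 330, 330 and 530 CPM in FL (adjusted p = 0.133).

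Cholesterol synthesis genes had a median of -0.54 over 23 members, and medians of -0.94, -0.51 and -0.13 in FL 1 to FL 3. DESeq2 called 11 lower and edgeR without FL 3 called 14 lower and 1 higher. NRF2 targets had a median of -0.50 over 20 members, with 13 lower and 3 higher without FL 3, and interferon response genes one of -0.34 over 28, with 12 lower and 1 higher. Their medians in FL 1 to FL 3 were -0.81, -0.51 and -0.15 for NRF2 targets and -0.68, -0.50 and -0.09 for interferon response genes. Without FL 1 no member of these 3 lists was called. OAS3, an antiviral synthetase, was 158, 163 and 161 CPM in EV and 66.2, 75.5 and 142 CPM in FL (adjusted p = 0.08). Small nucleolar RNA host genes had a median of 0.50 over 17 members, with 9 called higher and 1 lower without FL 3. No member was called either among genes of hypoxia (19 tested, median 0.25), glycolysis (18 tested, median -0.28), the mitochondrial genome (13 tested, median 0.15) or nuclear-retained noncoding RNAs (10 tested, median -0.09). Over all genes tested the median was 0.01 without FL 3 and 0.00 without FL 1. Without FL 3, 30.7% of genes were called, 17% higher and 13.8% lower, so these counts stand against a high background. DESeq2 called 3.36% of all genes tested lower.

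**Figure D5:**
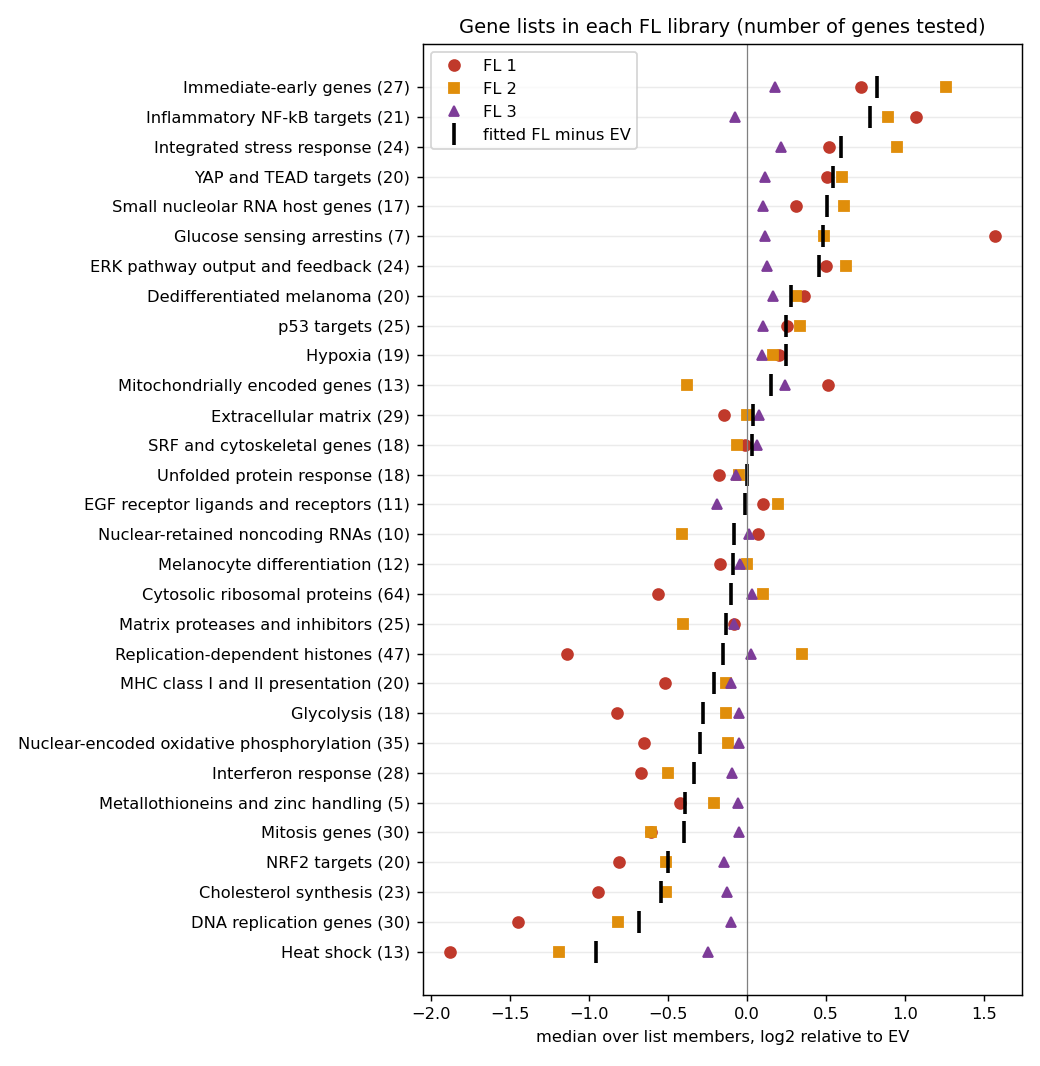
Median log2 difference from the EV mean over the tested members of each gene list, for FL 1, FL 2 and FL 3, with the fitted FL over EV median as a black bar and the number of genes tested in parentheses. FL 3 lies within 0.25 of 0 for every list drawn, while heat shock reaches -1.88 in FL 1 and immediate-early genes 1.26 in FL 2.

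FL 1 and FL 2 parted in several abundant classes. Replication-dependent histone genes had medians of -1.14 in FL 1, 0.35 in FL 2 and 0.03 in FL 3 over 47 members. Cytosolic ribosomal proteins had -0.57, 0.10 and 0.03 over 64, and nuclear-encoded oxidative phosphorylation genes -0.65, -0.12 and -0.05 over 35. No gene of these classes was called with 3 libraries. For histones and ribosomal proteins, counts are uncertain because closely similar copies exist. FL 1 also held 2 genes of red cell and B cell biology that the other libraries nearly lacked, named after their values were seen. ALAS2, the erythroid enzyme of haem synthesis, was 56.0 CPM in FL 1 and at most 0.96 CPM in the other 5 libraries. TENT5C, a poly(A) polymerase of B cells, was 21.1 CPM in FL 1 and at most 1.14 CPM in the others. The haemoglobin genes HBA1, HBA2 and HBB did not share this pattern. They had 0, 1 and 1 reads in FL 1 and 4, 28 and 8 reads in FL 3. The source of the ALAS2 and TENT5C reads was not tested. Of the 10 genes with the widest spread in FL, most were small or repeated genes such as RMRP, U2, EIF3CL and SULT1A3, for which estimated counts can pass from 1 copy to another. RMRP stands in the table under 2 identifiers, and 1 of them held 0 reads in FL 1.

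The same contrast was made in batch 1 with other libraries. The design text says that 6 samples came from an earlier series, without naming their groups, so whether batch 1 holds them is not known. Of 12885 genes tested in both batches, 180 were called in batch 2 and 3106 (24.1%) in batch 1. The common coefficient of variation was 0.212 in batch 2 and 0.0503 in batch 1. Numbers of calls are therefore not on an equal footing, and the part of this spread in them was not tested. Over its own 14310 tested genes batch 1 had 22.7% called, 11.4% higher and 11.3% lower. Called in both and in the same direction were 13, all higher, which is 7.22% of the batch 2 calls and 0.419% of the batch 1 calls. A further 7 (3.89% of the batch 2 calls) were called in opposite directions. The batches have their own EV and FL libraries and were counted in different ways, so levels were not compared across them. SLNCR rose by 4.30 in batch 2 and 3.37 in batch 1. CREB5 rose by 2.57 and 0.42 (adjusted p = 0.0153 in batch 1), CASC15 by 1.69 and 0.74, BMP2 by 1.93 and 0.51, ARRDC3 by 2.27 and 0.33, and MXD1, an antagonist of MYC, by 1.90 and 0.21. Each of these values was smaller in batch 1, a difference that was not tested. STC2, TRIB3 and NUAK2 rose in batch 2 and fell in batch 1, by 0.28, 0.24 and 0.24 on the log2 scale. The integrated stress response list held 7 calls higher and 0 lower in batch 2, and 1 higher and 6 lower of 24 in batch 1. The DNA replication list held 0 calls in batch 2 and 2 higher and 6 lower of 30 in batch 1. SOX11 (0.04, adjusted p = 0.903), CTNND2 (0.33, adjusted p = 0.49) and SOX10 (-0.07, adjusted p = 0.772) did not pass in batch 1. MYOCD and USHBP1 were not tested there.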

How the data were processed

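RNA sequencing was compared in 3 FL and 3 EV libraries of batch 2. The authors deposited estimated counts per gene for batch 2, made with salmon per the file's name, and raw counts per gene for batch 1, with replicates not pooled. The submitters' processing notes name, without roles, DESeq2 1.24.0, Subread 1.6.2 with featureCounts, STAR 2.7.3a, FastQC 0.11.5, cutadapt 2.5 and the builds GRCh38 and GRCm38. The sources used here do not give salmon's version, the annotation or the use of strand, so antisense and overlapping genes are uncertain.

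Estimated counts were rounded, filtered with filterByExpr (minimum count 10, total 15), TMM scaled and fitted with edgeR 4.0.16 (quasi-likelihood, robust) in R 4.3.3 over all 12 batch 2 libraries, which left 8 residual degrees of freedom. P-values were adjusted over all genes tested by the Benjamini-Hochberg method. Log2 CPM used a prior count of 2, and standard errors were derived from the fitted log2 change and its F statistic. Alternatives were DESeq2 1.42.0, limma 3.58.1 voom with sample weights, RLE scaling, no filter, EV and FL alone, each library left out, a replicate block and, added after seeing the data, removal of GC and length trends.

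Samples were grouped by their labels. The comparison and the 36 gene lists were chosen with earlier results of these data known. Genes were named by rule: SLNCR and linked genes, the 15 largest rises and falls among called genes whose groups do not overlap and whose mean log2 CPM reaches 1, up to 4 members per list, the 10 widest spreads in FL and 5 genes called in both batches. Not all of them are described, and some are not reported here. EV and FL numbers did not pair the libraries. Gene positions are from GENCODE v29, and promoter sequences from RefSeq on GRCh38.p14.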

Additional observations from a re-analysis of the deposited data

Results flagged for a closer look

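For 12 of the genes reported here every FL library of batch 2 lay on one side of its EV libraries and every FL library of batch 1 on the other. The share of such genes over all genes tested was not counted. For some of the 12, the rule for naming genes already required no overlap in batch 2. Gaps in batch 1 could be small, and for MCM4 the nearest libraries there were 607 CPM in EV and 608 CPM in FL. The difference between batches was not tested, and the batches were counted in different ways. Below, the log2 change of FL over EV in batch 2 comes first and that in batch 1 second. PPP1R15A changed by 2.42 and -0.14, DDIT3 by 2.28 and -0.19, ATF3 by 1.81 and -0.24, and STC2 by 1.95 and -0.28. Of these, STC2 passed the test in batch 1 (edgeR adjusted p = 0.00797), and the others did not (0.0541 to 0.335). DUSP8, a MAP kinase phosphatase, changed by 2.11 and -0.37, and TSC22D3, a glucocorticoid-induced gene, by 1.99 and -0.70. NUAK2, a kinase gene and YAP target, changed by 1.34 and -0.24, and the potassium channel gene KCNJ12 by 2.21 and -0.64, and both passed in each batch. SOX9 changed by 0.62 and -0.13.

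The remaining 3 were lower in batch 2 and higher in batch 1. HSPA8 changed by -1.49 and 0.11, MCM4 by -0.91 and 0.05, and DAPK1 by -1 and 0.36. Of these DAPK1 was called in batch 2, and HSPA8 in batch 1 (adjusted p = 0.0309).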

How the results depend on the processing

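The count of 217 called genes was 2057 with DESeq2, 907 with no filter on low counts, 4475 with voom sample weights, 729 with GC and length trends removed and 2 in EV and FL alone, and it ran from 6 (without EV 1) to 5966 (without FL 3) when 1 library was left out. The share of calls that were higher was 88.9%, against 69.3% with DESeq2 58.4% with voom weights, 76% without FL 1, 55.1% without FL 3 and 45% without EV 3. RLE scaling gave 151 calls. The replicate block, on numbers that did not pair the libraries (correlations of 0.123, -0.142 and 0.158 for equal numbers), gave 399 calls. SLNCR was called under every setting, at 4.10 to 4.57. Genes called in both batches numbered 253 with DESeq2, 124 with no filter, 1 in EV and FL alone, 29 with the replicate block and 1 to 1145 when 1 library was left out. Restricted to a mean log2 CPM of at least 1, genes set apart in FL 1, FL 2 and FL 3 numbered 901, 49 and 446. The median of the EGF family list, -0.01, was 0.203 with voom weights and 0.01 at the most with 1 library left out (0.0101 without EV 2, 0.00604 without FL 2, 0.00779 without FL 3), and -0.0702 without FL 1. The causes of these shifts were not tested. For single named genes, 327 of the values under alternatives lost the call, 42 gained it and 827 kept their side. The common coefficient of variation was 0.212 with 3 libraries per group, and whether depth limits the calls was not tested.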
